A study of Mus musculus with 8 samples.

Results

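Hippocampal gene expression was compared between sedentary mice fed astaxanthin and sedentary mice fed a placebo, on 4 of the 8 arrays of the series. The AX group (2 arrays) received food in which a powder holding 2% astaxanthin from the alga Haematococcus pluvialis made up 0.5% by weight. The SED group (2 arrays) received a placebo powder at the same 0.5%. Both groups were male C57BL/6J mice, 11 weeks old when obtained, housed singly, with 8 mice per group, and neither group exercised. The other 4 arrays hold the same pair of diets in mice given mild treadmill exercise, AX+ME (2 arrays) and ME (2 arrays), and serve here as a second pair that shares no array with the first. Every group has 1 sample labelled with Cy3 (replicate 1) and 1 labelled with Cy5 (replicate 2), on separate arrays, so every difference was taken within a dye. The labels do not say how RNA of 8 mice became 2 samples, so p-values reflect only how far these samples differ, which may be technical. Each group also occupied its own column of the slide and each dye its own row, so the position of an array and its group cannot be told apart.

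Astaxanthin is a red carotenoid of algae and seafood that lies in cell membranes and quenches reactive oxygen. Unlike beta-carotene it is not a usual source of vitamin A. The hippocampus is the brain region of spatial and episodic memory, and its dentate gyrus keeps producing neurons in adult mice. The title of the series names leptin, the satiety hormone of fat tissue, as a possible mediator of an effect of astaxanthin on neurogenesis and memory during mild exercise. The AX against SED pair shows the diet alone.

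The results turn most on a pair of genes for secreted peptide hormones, one lower and the other higher in AX. Trh encodes thyrotropin-releasing hormone and Oxt encodes oxytocin, both best known from the hypothalamus. Their promoters are printed because nuclear receptors, which bind the half-site AGGTCA, are known regulators of both genes. The 250 bases before the transcription start are given 5′ to 3′ on the strand of the gene, from RefSeq on GRCm38.p6, with each AGGTCA or its reverse complement TGACCT in capitals. Trh lies on the minus strand (chr6:92244651-92244900) and Oxt on the plus strand (chr2:130575919-130576168).
Trh promoter: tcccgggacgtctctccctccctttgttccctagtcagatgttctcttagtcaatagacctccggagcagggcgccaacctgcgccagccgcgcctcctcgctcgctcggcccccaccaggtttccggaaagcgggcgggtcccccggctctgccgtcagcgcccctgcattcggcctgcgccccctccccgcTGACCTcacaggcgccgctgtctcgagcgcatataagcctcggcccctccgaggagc
Oxt promoter: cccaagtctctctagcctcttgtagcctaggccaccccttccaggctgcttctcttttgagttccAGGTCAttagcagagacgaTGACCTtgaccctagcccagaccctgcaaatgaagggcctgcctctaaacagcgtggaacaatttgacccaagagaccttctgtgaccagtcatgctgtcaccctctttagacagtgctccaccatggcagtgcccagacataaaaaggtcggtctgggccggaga
The Trh window holds 1 half-site and 68.8% G and C, and the Oxt window holds 2 half-sites and 54% G and C. The half-site occurs on either strand in 13.8% of the 27025 promoters of that table, and 94 of the 125 genes named by rule have a promoter there. A match describes the letters only.

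The arrays were SurePrint G3 Mouse GE 8x60K arrays, read as the spot signal divided by the 75th percentile of its own array. A level of 100% is that percentile, and levels are not comparable between probes. The 75th percentile stood at a signal of 1775 and 2319 on the AX arrays (Cy3 and Cy5) and at 1420 and 2045 on the SED arrays. Both SED arrays are dim in their first columns, so spots from column 70 on were used. Just past that edge the SED arrays read higher than AX. In columns 70 to 74 the median log2 difference AX minus SED was -0.13 in Cy3 and -0.25 in Cy5, in columns 85 to 89 it was -0.05 and -0.06, and in the same bins AX+ME minus ME stayed between 0.01 and 0.04. The plot of medians by array column shows this slope at the left for both dyes of the sedentary pair. A second, shallower stretch lay in the bins from columns 145, 150 and 155. Medians there were -0.05 to -0.06 in Cy3 and -0.07 to -0.09 in Cy5. Dtl, Col3a1, Egr1 and Socs3 lie in it, and with bands centred their differences were -0.85, -0.56, -0.32 and -0.28. Copies of the same probe varied by 2.82% and 2.89% on the AX arrays and by 5.06% and 7.04% on the SED arrays (median coefficient of variation). Genes named by rule are therefore given with a second value after centring each array within 5-column bands, wherever that moves them by over 1.5 times. All 11 pyramidal cell markers (among them Wfs1, Grik4 and Amigo2) were well above background on all 8 arrays. The same held for all 8 dentate granule cell markers (among them Prox1 and C1ql2). It also held for all 18 choroid plexus and all 11 meningeal fibroblast markers, so detection alone does not identify the tissue. Pairwise correlations of log2 signal between arrays were 0.990 to 0.998.

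**Figure D1:**
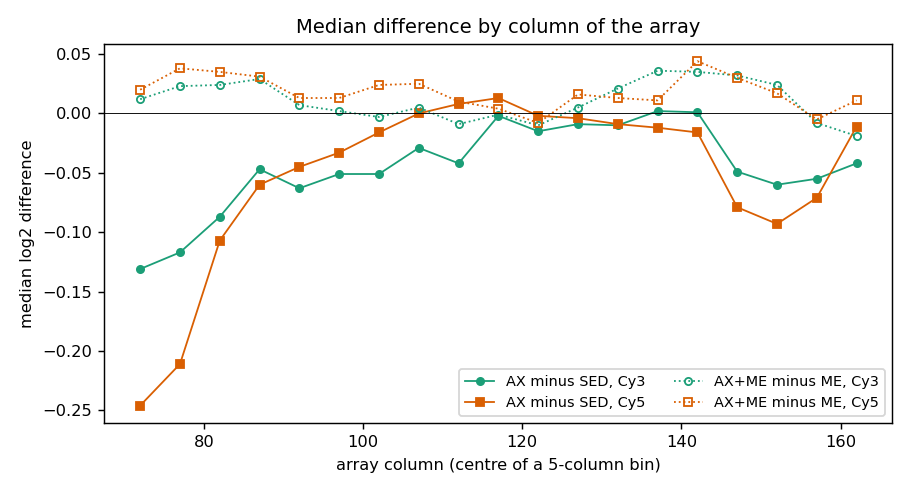
Median log2 difference (vertical) of the genes in each 5-column bin against the bin's position on the array (horizontal), for AX minus SED (filled) and AX+ME minus ME (open) in Cy3 (circles) and Cy5 (squares). The sedentary pair starts at -0.13 and -0.25 at the left and comes close to 0 from about column 105 to 140. It falls again to -0.06 and -0.09 in the bin from column 150. The exercised pair stays near 0 throughout.

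Of 17770 genes and unnamed transcripts tested, none passed an adjusted p of 0.05 between AX and SED in the limma fit over all 8 arrays (Benjamini-Hochberg, two-sided), and the smallest adjusted p was 0.0848, shared by 341 genes. Below 0.10 there were 1160 (6.53%). At an unadjusted p under 0.05 there were 4373 genes (24.6%), of which 1311 were higher in AX (7.38%) and 3062 lower (17.2%). That split depends on scaling: with the 75th percentile taken over columns from 70 on alone, 2233 were higher and 1847 lower, with quantile normalization 2137 and 2013, and with the median as scale 614 and 5193. The median difference over all genes was -0.05 on the log2 scale. Values below are to be read against that shift.

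At least 1.5-fold the same way in both dyes, 49 genes were higher in AX (0.276%) and 71 were lower (0.4%), while 33 passed 1.5-fold in opposite ways in the 2 dyes (0.186%). With the percentile over columns from 70 on alone the split was 66 higher and 54 lower, and with the median as scale 33 and 116. Across the 17770 genes, the Cy3 difference and the Cy5 difference had a Pearson correlation of 0.253 and a Spearman correlation of 0.398, a description only, since both are computed from the same probes. A typical gene's differences in the 2 dyes lay 0.13 apart. Of the 49 higher genes 17 had a symbol and of the 71 lower genes 39. In the plot of the Cy5 difference against the Cy3 difference, Trh stands on the diagonal, well below the 1.5-fold lines. The 71 lower genes had a median of -0.91. Some lay further down than Trh in Cy5 and off the diagonal. Examples chosen after their values were seen are Tspan11 (-1.06 in Cy3, -4.57 in Cy5) and Trem3 (-1.29, -4.57). Neither was well above background on an AX array. In 9 of the 71 lower and 17 of the 49 higher genes a whole group had no array well above background. Several of the far higher points, such as Wfdc16 and Umod, lie off the diagonal, with a larger difference in Cy5 than in Cy3.

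**Figure D2:**
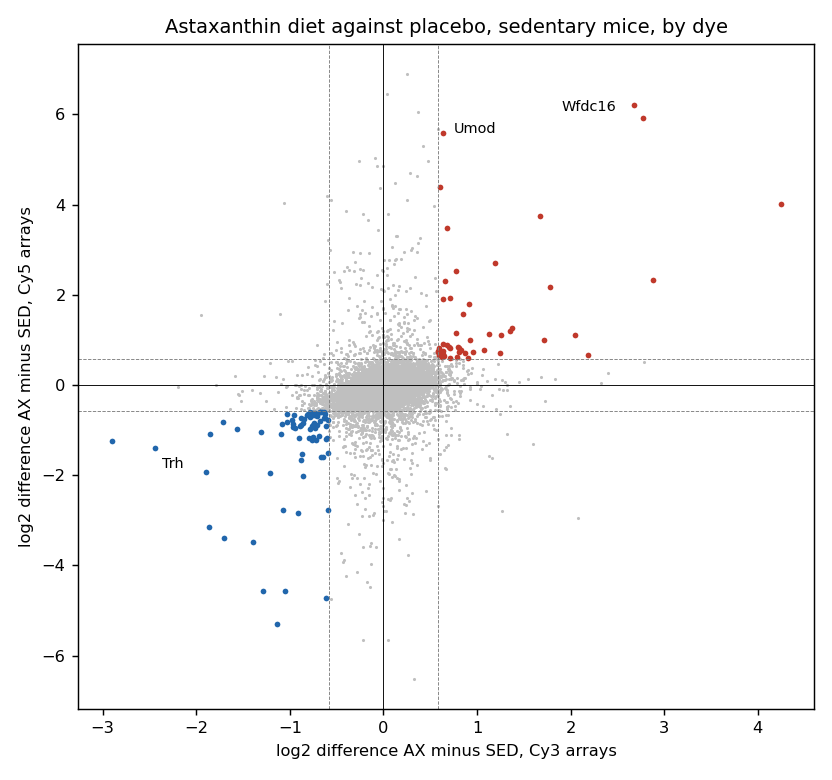
Log2 difference AX minus SED in Cy3 (horizontal) against the same in Cy5 (vertical) for 17770 genes. Dashed lines mark 1.5-fold; the 49 genes higher in both dyes are red and the 71 lower in both are blue.

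Trh had the smallest p of all named genes. Its level was 8.58% and 6.96% on the AX arrays (Cy3 and Cy5), against 32.0% and 26.4% on the SED arrays. Both AX arrays lay far below both SED arrays, at a log2 difference of -1.91 (SE 0.0816, limma adjusted p = 0.0848). When only genes well above background on all 8 arrays were tested, the limma adjusted p of Trh was 0.0244. The exercised groups stood near AX, with 11.9% and 11.7% in AX+ME and 9.85% and 8.98% in ME. The difference AX+ME minus ME was 0.33, and the interaction was 2.24 (limma adjusted p = 0.104). The SED arrays were the only high ones among the 8. Every group is set against the same SED arrays here, so these levels stand side by side and are no repeat of one another. Its receptor gene Trhr was at 74.5% and 90.3% in AX, against 86.7% and 101% in SED. Trhr was lower in AX within each dye (-0.218 in Cy3, -0.165 in Cy5), and the ranges overlapped only across dyes.

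Dtl encodes the substrate receptor of a ubiquitin ligase that removes the replication licensing factor Cdt1. It was at 10.7% and 11.0% in AX and at 19.5% and 19.8% in SED (log2 difference -0.86, SE 0.0426, limma adjusted p = 0.0848, or 0.0376 among genes well above background on all 8 arrays). The exercised groups again lay near AX, with 12.5% and 12.3% in AX+ME and 11.7% and 12.1% in ME. Drd1, the D1 dopamine receptor, was at 16.9% and 16.5% in AX and at 26.1% and 25.9% in SED, a log2 difference of -0.64 (SE 0.0492). AX+ME stood at 19.9% and 19.8% and ME at 18.1% and 16.6%, so for Drd1 too the SED arrays were the highest of the 8. The list of 16 striatal and dopamine receptor genes gave no common direction. Of 11 tested, 4 were higher and 4 lower in both dyes, against 24.3% and 42.9% of all genes. The list median was -0.04 (0.01 with the percentile over columns from 70 on alone). Their summed level was 1052% and 1113% in AX and 1095% and 1133% in SED.

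Also among the 71 lower genes were Ptger3, Unc13c, Chn2, Cbln1 and Bmp3. Ptger3, the prostaglandin receptor of fever, was at 5.11% and 5.12% in AX and at 10.4% and 9.01% in SED (-0.92). Unc13c, a presynaptic protein that primes synaptic vesicles, was at 38.9% and 37.8% in AX, against 65.4% and 69.8% in SED (-0.82, column 75). Unc13c was also lower in the exercised pair, at 39.6% and 41.8% in AX+ME and 52.1% and 56.9% in ME (-0.42). Chn2, a Rac GTPase-activating protein, was at 90.9% and 90.3% in AX and at 145% and 136% in SED (-0.63, column 76). Its exercised pair had a difference of -0.19. Cbln1, a secreted organizer of synapses, was at 56.9% and 62.3% in AX and at 94.3% and 96.02% in SED (-0.68), but AX+ME minus ME was 0.40.

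Col3a1 and Pomc, named in earlier results, were lower in both dyes but under 1.5-fold in 1 of them, and so are not among the 71. Bmp3, a bone morphogenetic protein that opposes others of its family, was at 5.96% and 6.94% in AX and at 9.78% and 12.8% in SED (-0.80). Col3a1, a fibrillar collagen of vessel walls and meninges, was at 15.8% and 16.6% in AX and at 22.2% and 25.9% in SED (-0.57). Both ran the other way in exercised mice, with AX+ME minus ME at 0.29 for Bmp3 and 0.53 for Col3a1. Pomc, the precursor of ACTH and beta-endorphin, was at 86.1% and 80.9% in AX and at 131% and 120% in SED (-0.58), while AX+ME had 77.9% and 75.9% and ME 57.4% and 57.6% (0.42).

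Further genes of the lower group were Sec14l3, Polg2, Atp6ap1l, Lce1i, Gm10639 and Tgtp2, with log2 differences between -1.09 and -0.61. Sec14l3, a lipid-binding protein, has a second, dimmer probe that gave 0.05 against the -0.80 of the brighter one. Polg2, the accessory subunit of the mitochondrial DNA polymerase, was dim, with 2.11% and 1.43% in AX (well above background on 1 array) and 3.27% and 2.17% in SED. Its difference was -0.04 with spots of all columns, against -0.61 from column 70 on. Tgtp2, an interferon-induced GTPase, and Lce1i, a protein of the cornified envelope, belong to families of near-identical genes, and Gm10639 is a predicted gene, so probe signal may be shared with relatives. Second, dimmer probes gave -0.103 for Tgtp2 and -0.395 for Gm10639, against -0.637 and -0.689 of the brighter ones. Lce1i was dim throughout, with 0.983% and 1.13% in AX and 2.10% and 2.39% in SED.

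Oxt was higher with astaxanthin in both pairs. Its level was 20.79% and 20.75% in AX, against 10.7% and 12.4% in SED, so the AX arrays lay above both SED arrays (log2 difference 0.85, SE 0.0821, limma adjusted p = 0.0848). In exercised mice it was 15.01% and 15.7% in AX+ME and 8.88% and 10.7% in ME, a difference of 0.66. The interaction was -0.19 (limma adjusted p = 0.549). In both pairs the astaxanthin arrays were the higher ones, without overlap.

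Lcn2 encodes lipocalin 2, an iron-siderophore binding protein of the acute phase that reactive astrocytes also make. It was at 55.7% and 57.0% in AX and at 34.0% and 37.4% in SED (0.66, SE 0.0475, limma adjusted p = 0.0848). AX+ME had 38.1% and 39.2% and ME 31.8% and 33.9%, a difference of 0.24, and the interaction was -0.42 (limma adjusted p = 0.208). The AX arrays were the highest of the 8. Scgb3a1, a secretoglobin of airway epithelium, was at 10.6% and 8.53% in AX and at 4.83% and 3.90% in SED (1.13, SE 0.162), with 3.90% and 4.52% in AX+ME and 4.21% and 3.23% in ME. Both AX arrays stood apart from the other 6 arrays.

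The remaining genes of the higher group were less steady. Phxr4 was at 9.03% and 8.86% in AX and at 4.84% and 5.88% in SED (0.75), and AX+ME minus ME was 0.47. Aspm, a spindle pole protein of dividing cells, was near the background at 2.71% and 2.95% in AX and 1.67% and 1.64% in SED (0.77). Xlr4b, of an X-linked family whose copies are near-identical, was at 12.7% and 13.3% in AX and at 7.31% and 7.45% in SED (0.81). In exercised mice it ran the other way, with 7.76% and 5.30% in AX+ME against 13.8% and 12.6% in ME (-1.04). With normexp background correction of the median signals, an alternative chosen after seeing the data that put the median of all genes at -0.21, the differences were 0.47 for Oxt, 0.59 for Scgb3a1, 0.32 for Phxr4, 0.09 for Aspm and 0.49 for Xlr4b, and that of Lcn2 was 0.52.

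A further 4 genes, Wfdc16, Umod, Ubl4b and Upk2, were not well above background on either SED array. Their differences are therefore bounds against the lowest signal that counted as measured, averaged over the 2 dyes on the log2 scale. Wfdc16, a protease inhibitor domain protein, was at 4.37% and 16.02% in AX, against 0.682% and 0.218% in SED, at least 6.21-fold higher. Umod, the kidney protein uromodulin, was at 1.01% and 9.59% in AX and at 0.646% and 0.2% (the floor of the scale) in SED, at least 2.31-fold higher. Ubl4b and Upk2 were at least 1.68-fold and 1.60-fold higher by the same mean, and for Upk2 the groups overlapped across dyes. The Cy3 levels of Umod, Ubl4b and Upk2 in AX were 1.01%, 1.08% and 0.924%. These lay below the lowest measured signal of the Cy3 array of SED, 1.09%. For these genes Cy3 alone gives no bound. In all 4 the Cy5 array of AX was several times its Cy3 array, so the Cy5 array carried more of the difference.

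**Figure D3:**
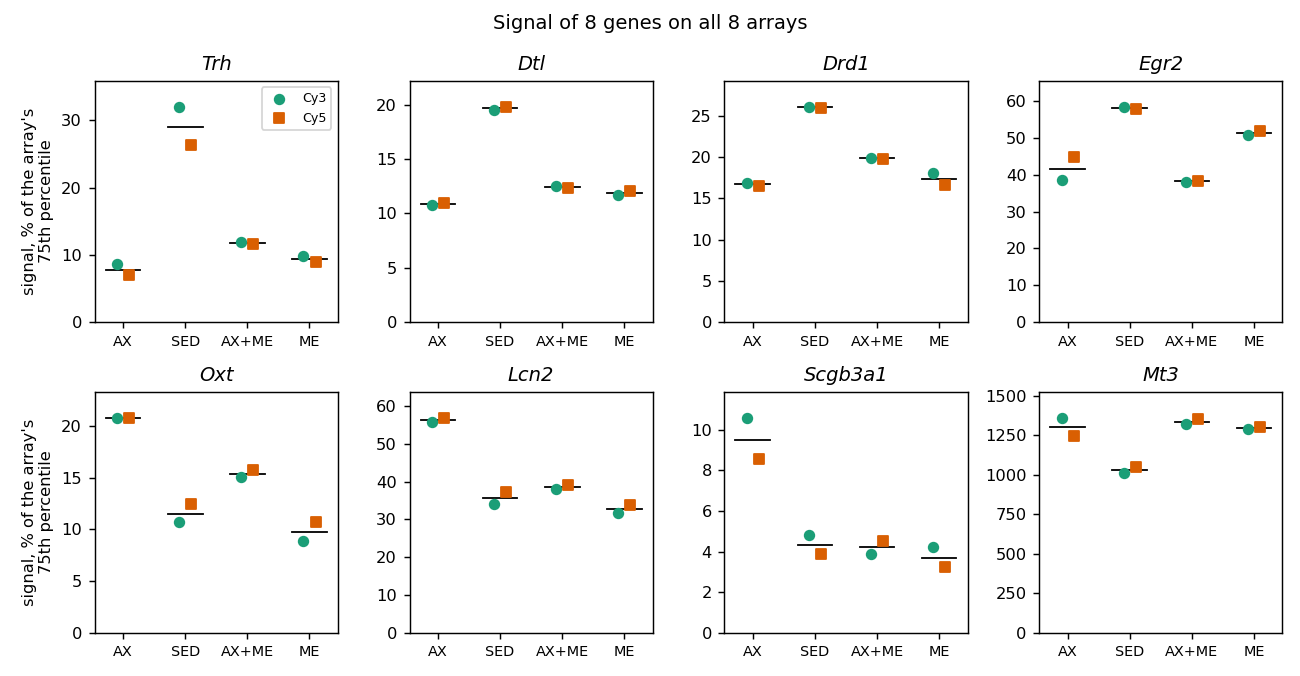
Level of 8 genes (vertical, percent of the array's 75th percentile) on each array of the 4 groups (horizontal); circles are Cy3, squares Cy5 and bars the geometric mean of both. Trh, Dtl and Drd1 are high on the SED arrays alone, Lcn2 and Scgb3a1 on the AX arrays alone, and Oxt is higher with astaxanthin in both pairs.

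The same diet contrast in exercised mice gave 3 genes at an adjusted p of 0.05 (0.0169%). They were Krt80 and 2 unnamed transcripts. Krt80, an epithelial keratin, was at 22.0% and 24.6% in AX+ME and 10.5% and 11.2% in ME (log2 difference 1.101, limma adjusted p = 0.0376). The count was 0 with quantile normalization or with any 1 of the sedentary arrays left out of the shared fit. In the sedentary pair it was at 13.5% and 15.1% in AX and at 10.9% and 12.2% in SED, a log2 difference of 0.31. Past 1.5-fold the same way in Cy3 and Cy5, 206 genes were higher (1.16%) and 31 lower (0.174%) in AX+ME.

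Of the 49 genes higher in AX, 26 were also higher in AX+ME than in ME in both dyes and 9 lower, with 7 and 4 past 1.5-fold. Over all genes 35.4% were higher and 27.6% lower in AX+ME in both dyes. Of the 71 genes lower in AX, 15 were also lower and 26 higher, with 3 past 1.5-fold each way. The median difference of the 71 was -0.91 in sedentary and 0.11 in exercised mice, and that of the 49 was 0.96 and 0.24. The interaction, which tests whether the diet difference depends on exercise, passed an adjusted p of 0.05 for no gene in limma (smallest 0.104), and 2277 genes had an unadjusted p under 0.05 (12.8%). The plot of the diet differences in sedentary against exercised mice places Oxt, Phxr4 and Lcn2 above 0 in both pairs and Unc13c, Egr2 and Lepr below 0 in both, while Trh, Pomc and Col3a1 are below 0 in the sedentary pair alone. Scgb3a1 had 0.19 (SE 0.162) in the exercised pair, with -0.11 in Cy3 and 0.49 in Cy5.

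**Figure D4:**
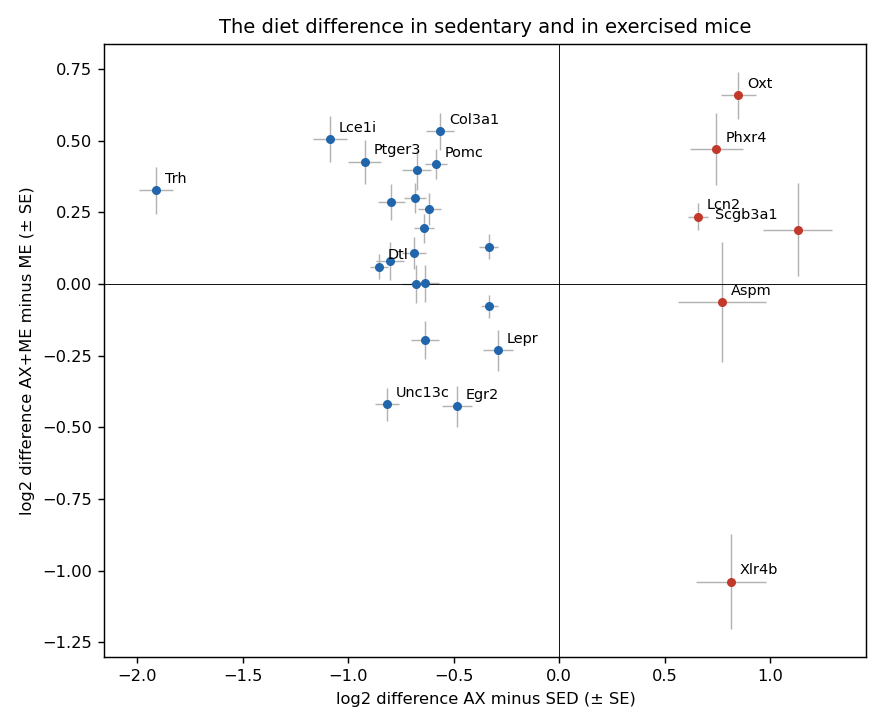
Log2 difference AX minus SED (horizontal) against AX+ME minus ME (vertical) with standard errors, for named genes of the 1.5-fold groups and genes named in earlier results; genes with a bound alone are left out. Genes lower in AX (blue) are spread from -0.43 to 0.53 on the vertical axis, and genes higher in AX (red) from -1.04 to 0.66.

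Leptin signalling was described by 15 genes, of which 13 were tested. In both dyes 11 were lower in AX and 1 was higher, with a median of -0.15, against 42.9% lower and 24.3% higher and a median of -0.05 over all genes. Of the 13 genes 7 lay in columns 70 to 89, and with bands centred 6 were lower, 3 higher and the median was -0.09. Over all genes 38.1% were then lower and 27.4% higher, with a median of -0.03, so the centred counts lay nearer the all-gene shares. None of the 13 passed the adjusted test. Lep itself, the hormone, was near the background at 1.49% and 1.43% in AX and 1.07% and 1.36% in SED, and well above it on 1 AX array and no SED array. The Cy5 array of AX was itself not well above background for Lep. No bound on the fold is therefore given for this probe, whose level can hardly be read. Lepr, the receptor, was at 232% and 185% in AX and at 304% and 210% in SED (-0.29). It was lower in AX within each dye (-0.395 in Cy3, -0.186 in Cy5), and the groups overlapped only across dyes.

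Downstream of the receptor, Socs3, the feedback inhibitor that cytokine signalling induces, was at 27.6% and 25.7% in AX and at 34.2% and 33.0% in SED (-0.33, SE 0.0441). In exercised mice its difference was 0.13. Irs2, an adaptor of insulin and leptin receptors, was at 1221% and 1211% in AX and at 1472% and 1368% in SED (-0.22, or -0.08 with bands centred). Ptpn2, a phosphatase acting on this pathway, had a difference of -0.25. Stat3, the transcription factor of the pathway, was at 331% and 339% in AX and at 362% and 347% in SED (-0.08).

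Of 10 genes of thyroid hormone handling 7 were tested, with 6 lower and 1 higher in both dyes and a median of -0.15. Of all genes 42.9% were lower and 24.3% higher in both dyes. With bands centred 5 were lower and 0 higher, against 38.1% and 27.4% of all genes, and the list median was -0.09. Thra, the main thyroid hormone receptor of brain, was at 1954% and 1925% in AX and at 2264% and 2101% in SED (-0.17), and Dio3, which inactivates the hormone, had a difference of -0.15 (-0.07 with bands centred). The differences in this list were small, and a link with Trh was not tested.

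Immediate early genes are induced within minutes of neuronal activity. Of 25 such genes 20 were tested, and 11 were lower and 1 was higher in both dyes, against 42.9% and 24.3% of all genes. Their median was -0.15 (-0.14 with bands centred). At an unadjusted p under 0.05, 9 were lower, against 17.2% of all genes. Egr2 was at 38.6% and 44.8% in AX and at 58.4% and 57.9% in SED (-0.48, SE 0.0712, limma adjusted p = 0.0848). It was also lower in the exercised pair, at 38.1% and 38.2% in AX+ME and 50.8% and 51.8% in ME (-0.43). Egr1 was at 1076% and 1161% in AX and at 1358% and 1457% in SED (-0.33), with -0.08 in the exercised pair.

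Among the other transcription factors of that list, Fos was at 106% and 122% in AX and at 121% and 138% in SED (-0.18). Jun was at 1240% and 1176% in AX and at 1588% and 1512% in SED (-0.36), and Klf4 had a difference of -0.31; both lie in columns where the median gene also read higher in SED, and stood at -0.21 and -0.19 with bands centred. Npas4, the member most tied to neuronal firing, hardly differed, with 216% and 217% in AX and 222% and 221% in SED (-0.03). Nr4a3, an orphan nuclear receptor, was the one higher member, at 4.62% and 4.25% in AX and 3.28% and 3.71% in SED (0.34). The groups did not overlap for Egr1, Egr2, Jun, Npas4 or Nr4a3, and for Fos they overlapped only across dyes. Over all genes both AX arrays lay below both SED arrays in 28.3% and above both in 15%.

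Antioxidant defence was described by enzymes and by targets of Nrf2, the transcription factor that oxidants and electrophiles activate. Of 22 antioxidant enzymes 14 were tested, with 10 lower and 2 higher in both dyes and a median of -0.10. Of all genes 42.9% were lower and 24.3% higher in both dyes, and every list count below is to be read against these shares. Sod2, the mitochondrial superoxide dismutase, was at 2220% and 2236% in AX and at 2767% and 2815% in SED (-0.33, or -0.18 with bands centred). Sod3, the extracellular form, was at 190% and 176% in AX and at 222% and 212% in SED (-0.25) and lies away from the edge. The thioredoxin gene Txn1 was at 1153% and 1282% in AX and at 1310% and 1482% in SED (-0.20). Catalase (Cat) differed in sign between the dyes, with 29.1% and 27.0% in AX and 26.1% and 31.8% in SED.

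Of 16 Nrf2 genes 14 were tested and 12 of these not saturated, with 8 lower and 1 higher and a median of -0.11. Nfe2l2, which encodes Nrf2, was at 138% and 140% in AX and at 168% and 162% in SED (-0.25, or -0.15 with bands centred). The glutamate-cysteine ligase genes Gclm and Gclc, which limit glutathione synthesis, had differences of -0.43 and -0.18, and with bands centred -0.31 and -0.04. Nqo1, a quinone reductase and classical target, was at 22.9% and 19.4% in AX and at 24.3% and 33.7% in SED, a difference carried by the Cy5 arrays (-0.80 in Cy5 and -0.09 in Cy3). Hmox1, heme oxygenase 1, was level at 67.5% and 65.6% in AX and 65.0% and 64.9% in SED (0.03). No member of either list passed the adjusted test.

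Mt3, the brain metallothionein that binds zinc and copper, was higher, at 1362% and 1248% in AX and 1011% and 1047% in SED (0.34, SE 0.0607, limma adjusted p = 0.0892). AX+ME stood at 1320% and 1354% and ME at 1291% and 1301%, near AX, so the SED arrays were the low ones. Mt2 is saturated on all arrays of the pair and gives no fold.

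Of 17 retinoid genes 11 were tested, with 7 lower and 2 higher and a median of -0.12 (-0.12 with bands centred). Rxrg and Rxrb, partner receptors in retinoid and thyroid hormone binding to DNA, had differences of -0.21 and -0.27, the second being -0.15 with bands centred. Aldh1a3, which makes retinoic acid, was at 6.41% and 5.64% in AX and at 7.63% and 7.71% in SED (-0.35). Of 14 genes of carotenoid and lipoprotein handling 9 were tested and 8 of these not saturated, with 3 lower and 1 higher and a median of 0.01. The higher one was Scarb1, a lipoprotein receptor that also takes up carotenoids, at 24.5% and 24.0% in AX and 22.2% and 19.9% in SED (0.21).

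Of 15 cholesterol synthesis genes 10 were tested, with 6 lower and 3 higher and a median of -0.10. The enzymes named by rule differed in direction. Hmgcs1, an early enzyme, was at 2105% and 2103% in AX and at 2576% and 2466% in SED (-0.26), and Cyp51, a later demethylase, had a difference of -0.39. Dhcr7, the last enzyme of the pathway to cholesterol, was at 93.8% and 82.7% in AX and at 73.7% and 71.0% in SED (0.28).

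Of 34 respiratory chain subunits 25 were tested, 12 of them saturated on all 4 arrays and so without a fold. Of the other 13 there were 11 lower and 1 higher in both dyes, with a median of -0.11. Sdhd, a subunit of complex II, had a difference of -0.26. Of 15 energy sensors tested 7 were higher and 7 lower in both dyes, with a median of -0.03. With bands centred 4 were higher and 7 lower, against 27.4% and 38.1% of all genes. At an unadjusted limma p under 0.05, 6 were lower and 1 higher, against 17.2% and 7.38% of all genes. The higher one was Ucp2 (0.44), chosen after its value was seen. Sirt1 and Sirt3, NAD-dependent deacetylases of nucleus and mitochondrion, had differences of -0.23 and -0.21, and Fndc5, the precursor of the exercise-related hormone irisin, of -0.23.

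**Figure D5:**
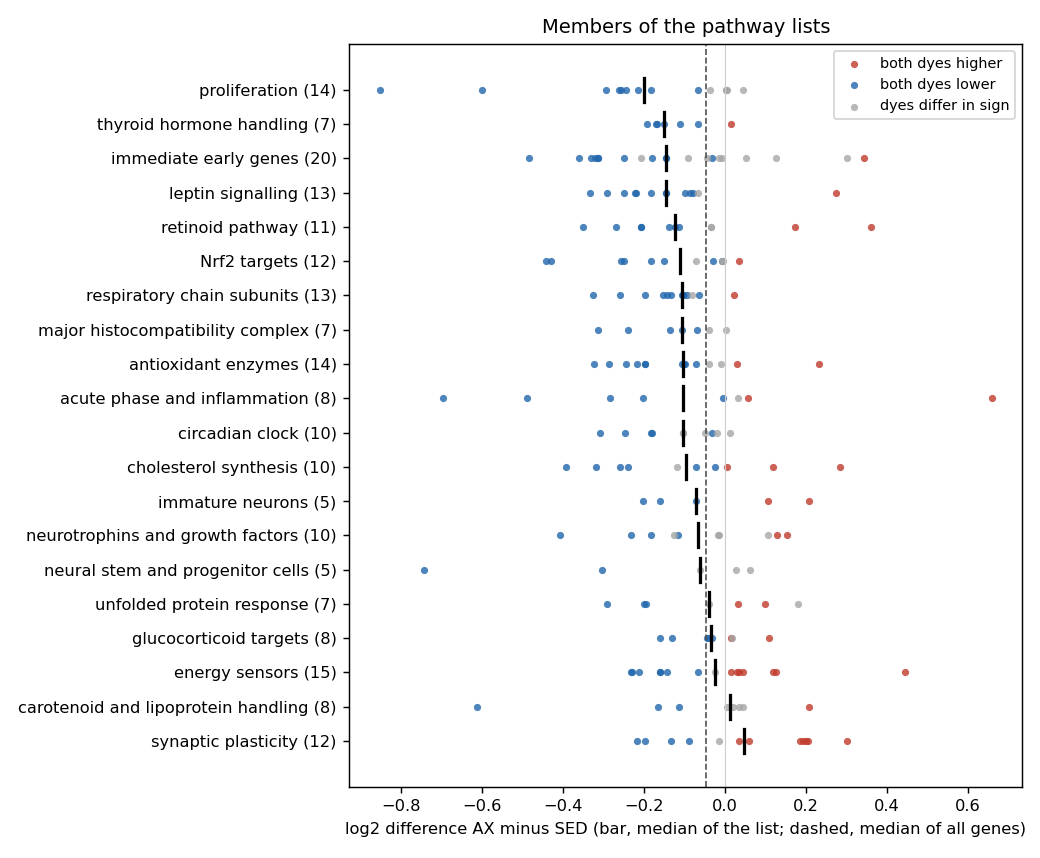
Log2 difference AX minus SED (horizontal) of each member, tested and not saturated, of 20 pathway lists (vertical, with the number of members); red members are higher and blue lower in both dyes, and grey differ in sign. Bars are list medians, from -0.20 for proliferation to 0.05 for synaptic plasticity, and the dashed line is the median of all genes at -0.05.

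The plot of the pathway lists shows most medians left of the all-gene median, with the members of each list spread far wider than the medians. The medians move with the scale: with the percentile over columns from 70 on alone the all-gene median was 0.005, and energy sensors, glucocorticoid targets and the unfolded protein response, negative before, stood at 0.03, 0.02 and 0.01. Neurogenesis was followed at its stages. Of 23 proliferation genes 14 were tested, with 9 lower and 0 higher and a median of -0.20, the lowest of the pathway lists shown; 6 of the 14 lie in columns 70 to 89, and the median was -0.09 with bands centred and -0.02 for members from column 90 on. Cdk1, the mitotic kinase, was near the background at 0.995% and 1.41% in AX and 2.24% and 2.05% in SED (-0.85). Mki67, which marks dividing cells, was at 13.1% and 12.7% in AX and at 14.4% and 14.98% in SED (-0.18). Of 5 tested genes of neural stem and progenitor cells 2 were lower and 3 differed in sign between the dyes, with a median of -0.06, near that of all genes. The lowest was Eomes, a factor of intermediate progenitors, at 2.45% and 2.19% in AX and 4.32% and 3.47% in SED (-0.74), and it was well above background on 1 AX array. Pax6 and Nes differed by 0.06 and 0.03.

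In 5 tested genes of immature neurons the median was -0.07 (-0.01 with bands centred), with Neurod1, a factor of new granule neurons, at 52.2% and 50.9% in AX and 44.7% and 44.7% in SED (0.21) and Sema3c at -0.20. Fewer cells of a type and less RNA per cell cannot be told apart in such samples. Of 10 tested neurotrophin and growth factor genes 4 were lower and 2 higher (median -0.07, or -0.03 with bands centred). Bdnf was at 238% and 277% in AX and at 284% and 299% in SED (-0.18), and Igf1 at 32.4% and 40.0% in AX and 46.5% and 49.0% in SED (-0.41), although 1 of 3 Igf1 probes gave the opposite sign. Of 12 synaptic plasticity genes tested and not saturated 7 were higher and 4 lower (median 0.05). Shank3, a postsynaptic scaffold, was at 681% and 495% in AX and at 489% and 454% in SED (0.30), with a larger difference in Cy3 than in Cy5.

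Stress and rhythm lists showed small differences. Heat shock genes had 3 lower and 0 higher of 4 not saturated, with the mitochondrial chaperones Hspd1 and Hspe1 at -0.29 and -0.31 (-0.21 and -0.16 with bands centred). Unfolded protein response genes had 3 lower and 2 higher of 7, glucocorticoid targets 5 lower and 2 higher of 8, and circadian clock genes 5 lower and 0 higher of 10 not saturated. Of 8 acute phase and inflammation genes 5 were lower and 2 higher. Lcn2 was the highest at 0.66, and Ccl7 and Il1b, a chemokine and a cytokine both near the background, stood at -0.70 and -0.29. Of 7 genes of the major histocompatibility complex 5 were lower and 0 higher, with B2m, the shared light chain, at -0.14. Of 3 receptor genes of oxytocin and vasopressin 1 was tested, Avpr1b, with 9.68% and 8.36% in AX and 6.49% and 7.65% in SED (0.35).

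Markers of neighbouring tissue were measured beside these genes. Of 12 hypothalamic peptide genes 8 were tested, with 3 higher and 3 lower in both dyes and a summed level of 201% and 197% in AX and 256% and 258% in SED. Pomc is the largest part of that sum, at 86.1% and 80.9% in AX and 131% and 120% in SED. Trh enters it too, at 8.58% and 6.96% in AX and 32.0% and 26.4% in SED. The lower sum in AX therefore does not describe the other members. A level of 0 was not possible for any of the 8, given the floor of the scale and the background filter. Trh and Pomc were among the lower ones and Oxt and Ghrh among the higher ones, the last at 9.87% and 11.9% in AX and 7.93% and 9.63% in SED. The pituitary hormone Prl was at 8.26% and 9.60% in AX and at 7.79% and 8.34% in SED, and at 8.09% and 7.87% in AX+ME, while ME stood at 0.924% and 1.51%. So the sedentary pair was alike in Prl, and the exercised pair was not. The part of neighbouring tissue in the levels of Trh, Oxt, Pomc or Drd1 was not tested.

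Of 11 meningeal fibroblast markers 6 were tested, with 4 lower and 1 higher, a median of -0.19, and a summed level of 571% and 568% in AX and 617% and 624% in SED. In the exercised pair their median was 0.54. Col1a2 was at 210% and 219% in AX and at 256% and 251% in SED (-0.24). Col3a1 is itself 1 of the 6 markers and the lowest of them at -0.57, so it enters that count, median and sum. The part of meningeal fibroblasts in the differences of Col3a1 and Bmp3 was not tested. Choroid plexus markers had 7 lower and 1 higher of 13, with a median of -0.06, their defining gene Ttr being saturated and left out. Markers of glia were mixed. Of 8 astrocyte markers not saturated 4 were lower and 2 higher, the higher ones being Gfap and Gja1 (0.31 and 0.19), with Gjb6 at -0.32. Of 9 microglia markers not saturated 5 were lower and 2 higher, with a median of -0.07 (0.006 for all tested from column 90 on). Cx3cr1 stood at -0.20, and C1qc and C1qb, chains of complement C1q, at 0.14 and 0.05. Of 5 markers of oligodendrocyte precursors 3 were lower and 1 higher, with Gpr17 at -0.31 and Olig1 at 0.18. Of the markers of the hippocampus itself, Dsp, a desmosomal protein of dentate granule cells, was at 138% and 152% in AX and 114% and 125% in SED (0.28). Of the other granule cell markers tested, C1ql2 had a difference of 0.14, with 0.27 in Cy3 and 0.02 in Cy5, and Stxbp6 one of -0.09. The 7 pyramidal cell genes tested had a median of -0.02, or 0.04 with the percentile over columns from 70 on alone.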

How the data were processed

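The authors deposited scanner files of linear spot intensities. The submitters' processing notes name Agilent Feature Extraction 11.0.1.1. Background subtraction and detrending were done array by array, with no scaling from one array to another, per the file headers. Genome build mm9 is that of the probe design, per the file headers, and no coordinates from it were used.

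The processed signal of the labelled channel was set over the 75th percentile of all spots of its array that are not controls, floored at 0.2% of it and put on a log2 scale. Control spots and spots marked as non-uniform or population outliers were left out, saturated spots kept, and spots from column 70 on used. Copies of a probe were averaged. Probes had to exceed background clearly on the 2 arrays of some group (21919 did), and the brightest probe stood for its gene (17770 genes and transcripts, 10549 with a symbol, assigned by accession). Genes saturated on all 4 arrays (488) were given no fold and left out of the counts printed for lists.

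All 8 arrays entered a limma 3.58.1 model (R 4.3.3) with group and dye terms, 3 residual and 1.637 prior degrees of freedom, two-sided, with Benjamini-Hochberg adjustment over all 17770. Samples of one replicate number share a dye, and their deviations from the group means correlated at 0.149 to 0.225 between groups, so the dye term is also the replicate block. The fit was tested on simulated data.

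The genes named are up to 15 higher and 15 lower with the smallest p among those 1.5-fold apart in both dyes and well above background on both arrays of AX or of SED, up to 4 members of each list with unadjusted p under 0.05 and the same direction in both dyes, and 11 genes of earlier results: 125 in all, transcripts without a symbol passed over, and a few are not reported here. Krt80 is in a list; Stat3, Fos, Npas4, Nr4a3, Cat, Nqo1, Hmox1, Mki67, Avpr1b, Prl, Pax6, Nes, C1qb, C1qc, C1ql2, Stxbp6, Mt2 and Ttr were chosen after their values were seen. The groups compared, the gene lists (42 lists of 584 genes, 370 tested) and the rules were chosen with earlier results of these data known. The closing section gives the alternatives. Normexp on mean signals was not run, since the files used here give median signals. The number of arrays limits the precision.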

Additional observations from a re-analysis of the deposited data

Results flagged for a closer look

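Each array was scanned in both channels but carried 1 labelled sample. In the channel without a label, 1.15% of spots from column 70 on were well above background on the Cy3 array of AX, against 1.095% on the Cy3 array of SED. On the Cy5 arrays the share was 0.746% in AX and 0.990% in SED. The result stands here because the share in AX exceeded that of its placebo array in data outside the comparison, in Cy3 alone.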

How the results depend on the processing

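The AX against SED comparison had 0 genes at an adjusted p of 0.05 in most settings, and the count depended on the variance model and the scale. It was 916 with all columns, 586 with the median as scale, 1699 with an intensity trend in eBayes, 2 (Trh and Dtl) among genes well above background on all 8 arrays, and 5574 with normexp on the median signals, which moved the median of all genes to -0.21. Leaving out 1 of the 4 arrays gave 0 to 4; the 4 came without SED replicate 1. With AX and SED arrays alone it was 0, and the smallest adjusted p was 0.357. Without the replicate block (no dye term) it was 0, and AX+ME against ME, 3 with it, also had 0. That count was 0 with all columns, quantile normalization, the median as scale, no filter or any of the 4 arrays left out (0 to 0), 2 from column 90 on or with the deposited value table, 6 among genes well above background on all 8 arrays, 8 with the trend and 6 with bands centred. The interaction had 130 calls with all columns, 90 with the trend and 94 with normexp, and 0 as reported.

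The 49 higher, 71 lower and 33 opposite genes at 1.5-fold became 841, 210 and 139 with all columns, 11, 25 and 3 among genes well above background on all 8 arrays, and 236, 339 and 517 with no filter. The lower genes numbered 40 from column 90 on and 116 with the median as scale, and normexp gave 2 higher and 2 opposite. Bands centred gave 52 higher and 59 lower. Normexp on median signals, a higher floor, population outliers kept and centred bands were chosen after seeing the data.

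Of the values of named genes, 2311 kept direction and side of the threshold, 246 passed it newly, and 16 reversed. The reversals were Gfap -0.079, Ptpn2 0.071 and Ntrk2 0.062 with all columns; F5 0.066, Csf1r 0.222 and Gria2 0.20 from column 90 on, where another probe is used; Gria2 0.032 with the mean of probes; and, with normexp, Gja1 -0.045, Scarb1 -0.113, Cldn2 -0.046, Ghrh -0.033, Neurod1 -0.056, Olig1 -0.002, Acta2 -0.014, Isl1 -0.12 and Lep -0.13. Probes of 8 of the 15 named genes with several probes differed in sign. The cause of the reversals under normexp was not tested.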

Other observations

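Some genes departed on a single array, chosen after their values were seen. Agrp, the appetite-driving peptide of the arcuate nucleus, was at 4.20% and 2.75% in AX and at 3.52% and 15.6% in SED, so the Cy5 array of SED stood apart. Hydin, a protein of motile cilia in ependymal cells, was at 16.6% and 52.7% in AX and at 17.4% and 17.8% in SED. The beta-globin gene Hbb-bs, uncertain here as it has a near-identical copy, was at 29.9% and 55.3% in AX and at 25.7% and 28.3% in SED. Both were high on the Cy5 array of AX, the array on which Wfdc16, Umod, Ubl4b and Upk2 were also the higher of the AX pair.

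Outside the columns compared, the hypothalamic peptide genes Avp and Hcrt were measured in columns 39 and 26. Avp, vasopressin, was at 8.62% and 8.18% in AX and at 7.35% and 8.57% in SED. Hcrt, the wake-promoting orexin precursor, was at 12.5% and 12.9% in AX and at 12.7% and 10.9% in SED. Both SED arrays are dim there, so these levels allow no comparison with those of Trh and Oxt.

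The largest difference among the 49 higher genes that lay close in both dyes belonged to a transcript without a symbol, at a log2 difference of 4.25 in Cy3 and 4.01 in Cy5. Neither SED array held it well above background, and AX was at least 5.18-fold higher. AX+ME minus ME was -0.29 for it.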
